A study of Mus musculus with 2 samples.

Results

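The AP-1 and immediate early genes were followed as 10 named genes, Fos, Fosb, Fosl1, Fosl2, Jun, Junb, Jund, Egr1, Atf3 and Nr4a1, out of the 27998 genes with a row in the count matrices. They were taken by symbol, each symbol had 1 row, and all 10 had UMIs in both libraries. The study made full-thickness wounds of 1.8 cm diameter on the back skin of young adult male C57BL/6J mice, large enough for hair follicles to form anew in the healed centre. By the labels, the WT_LW group received PBS and the TLR9agonist_LW group received ODN2395, a synthetic CpG oligonucleotide that activates the DNA-sensing receptor TLR9, on days 0, 3 and 6 after wounding. The study's own text names PBS in one place and a control oligonucleotide in another for WT_LW, so what the control wounds received is not certain. Both groups carried the wild-type genotype. Central wound tissue was taken 2 days after the scab came off. Epidermis and dermis were parted and digested with enzymes, the cells of several mice were pooled, and 1 single-cell library was made per group.

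Each value below is therefore 1 measurement per condition, with no replicate. A difference between the libraries cannot be told apart from a difference between the pools of mice, the days or the handling of the tissue, and no test across samples was possible. Levels are in CPM, the UMIs of a gene per 1000000 UMIs of a cell class (UMI, the molecular tag that counts 1 captured transcript). Differences are log2 ratios of TLR9agonist_LW over WT_LW. The 95% intervals are exact and cover counting error only. The 10 genes were taken by name but selected on their measured CPM by class in these same libraries, so their levels and ratios are given as a description.

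Fos and Jun proteins are leucine zipper transcription factors that bind DNA in pairs, and the pair is called AP-1. Jun proteins can pair with each other, whereas Fos proteins need a Jun partner. Fos, Fosb, Jun and Junb, with Egr1, Atf3 and Nr4a1, are immediate early genes. Their transcription is switched on within minutes of a growth factor, cytokine, stress or wound through MAP kinases, and their transcripts are short-lived. The same genes are also known to be switched on while tissue is dissociated with warm enzymes, along with heat shock genes.

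The stretch around the transcription start is shown for 4 members picked by name. Each differed by more than 2-fold between the libraries in 2 or more cell classes. Fos and Fosb did so downward, Junb upward and Atf3 in both directions. Other members, such as Jun, Egr1 and Nr4a1, also differed this much in 2 or more classes and are not shown. Each run has 300 bases, 250 before the RefSeq start and 50 from it on, read 5′ to 3′ on the strand of the gene, in build GRCm38.p6. Fos lies at chr12:85473640-85473939 on the plus strand, Fosb at chr7:19309996-19310295, Junb at chr8:84978699-84978998 and Atf3 at chr1:191183284-191183583, all 3 on the minus strand. The Atf3 window lies within the annotated gene (chr1:191170296-191218039), so the start shown is not the gene's outermost one. Capitals mark TATAAA, the letters of a TATA box. They also mark the core that CREB and ATF proteins recognise, TGACG. On the other strand that core reads CGTCA, as in Atf3.
Fos: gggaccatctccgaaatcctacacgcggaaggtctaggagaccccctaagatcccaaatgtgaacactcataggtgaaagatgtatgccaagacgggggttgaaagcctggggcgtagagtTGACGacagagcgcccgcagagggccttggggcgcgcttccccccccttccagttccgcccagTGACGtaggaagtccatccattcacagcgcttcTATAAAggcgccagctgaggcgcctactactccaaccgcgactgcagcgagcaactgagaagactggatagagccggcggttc
Fosb: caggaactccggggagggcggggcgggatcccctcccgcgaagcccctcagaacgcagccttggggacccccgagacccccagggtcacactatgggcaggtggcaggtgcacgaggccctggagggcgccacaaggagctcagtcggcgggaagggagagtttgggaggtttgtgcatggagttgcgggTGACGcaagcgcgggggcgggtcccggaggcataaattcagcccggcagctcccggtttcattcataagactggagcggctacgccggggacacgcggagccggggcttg
Junb: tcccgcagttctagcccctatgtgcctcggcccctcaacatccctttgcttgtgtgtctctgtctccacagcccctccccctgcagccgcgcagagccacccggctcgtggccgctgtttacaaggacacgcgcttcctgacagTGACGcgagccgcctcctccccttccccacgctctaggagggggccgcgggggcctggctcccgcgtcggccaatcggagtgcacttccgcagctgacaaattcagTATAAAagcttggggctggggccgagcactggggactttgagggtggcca
Atf3: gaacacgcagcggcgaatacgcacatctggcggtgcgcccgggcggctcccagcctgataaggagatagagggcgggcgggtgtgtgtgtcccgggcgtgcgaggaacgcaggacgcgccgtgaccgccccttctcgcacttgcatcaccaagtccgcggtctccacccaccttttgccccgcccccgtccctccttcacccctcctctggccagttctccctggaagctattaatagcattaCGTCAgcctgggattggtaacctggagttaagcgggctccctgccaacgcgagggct

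The promoter table held an entry for 8 of the 10 genes, without Fosl1 and Egr1. TGACG, searched on both strands, was in 5 of the 8 (Fos, Fosb, Junb, Atf3 and Nr4a1) and in 20.8% of all 32851 promoters of the same length. In Fos it began 129 and 66 bases before the start, in Fosb 60, in Junb 106 and in Atf3 7. TATAAA was in 2 of the 8 (Fos, 33 bases before the start, and Junb, from the RefSeq start itself on) and in 13.6% of all promoters. The longer TGACNTCA, which overlaps TGACG where N is G, was in Jun alone, 45 bases before its start, and in 8.83% of all. The AP-1 site TGANTCA was in 0 of the 8 and in 7.81% of all, the CArG box bound by SRF in 0 and in 1.63%, and the Egr1 site GCGTGGGCG in 0 and in 0.612%. CCAAT was in 3 of the 8 and in 37.4% of all. A match says only that these letters stand in the window.

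Cells were sorted into 11 classes by marker genes. After filtering, 10395 WT_LW cells and 11811 TLR9agonist_LW cells were used, with 85681280 and 111120573 UMIs and a median of 5519 and 6080 UMIs per cell. A class was given to 86.8% and 88.5% of them. Nearly all markers were highest in their own class in both libraries, which the sorting by these markers fixed in part and which is no separate check of the names. The libraries shared 39 barcodes. In CPM, the median gene was lower in TLR9agonist_LW, by a log2 ratio of −0.38 over all gated cells, −0.47 in keratinocytes, −0.28 in fibroblasts, −0.28 in T cells and −0.26 in macrophages and dendritic cells, so a ratio near 0 stood above the median gene. The heat shock list, 13 genes known to be induced during dissociation, was higher in TLR9agonist_LW in every class, at 9453 against 16472 CPM over all gated cells.

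Over all gated cells the members divided. Fos and Fosb were lower in TLR9agonist_LW, Fosl1 was higher, and the other 7 lay between −0.19 and 0.23 on the log2 scale. Such values also depend on the mix of classes, and fibroblasts made up 10.4% and 23.0% of gated cells. Egr1, highest in fibroblasts, was at 0.23 over all gated cells but lower in 8 of 11 classes. Fos, the partner that gives AP-1 much of its induced activity, was at 1329 CPM in WT_LW and 758 in TLR9agonist_LW (log2 ratio −0.81). Its close relative Fosb was at 772 and 432 (−0.84). Fosl1, the Fos relative known from migrating keratinocytes, was at 19.2 and 51.4 (1.42). Its ratio was smaller within the classes that held most of its UMIs, at 0.64 in keratinocytes and 0.37 in fibroblasts, and keratinocytes, its highest class, made up 6.07% and 13.5% of gated cells. With 1 of 10 members past 2-fold higher and 0 past 2-fold lower, the background was 3.96% of 15302 genes higher and 11.4% lower, and nothing is read from the count because the members were chosen with these ratios known. The median log2 ratio was −0.09 for the 10 members, against −0.38 for all genes. The sum of the 10 genes was 7473 CPM in WT_LW and 6621 in TLR9agonist_LW (−0.17). Relative to the median gene that sum was higher in TLR9agonist_LW, at 0.21.

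**Figure D1:**
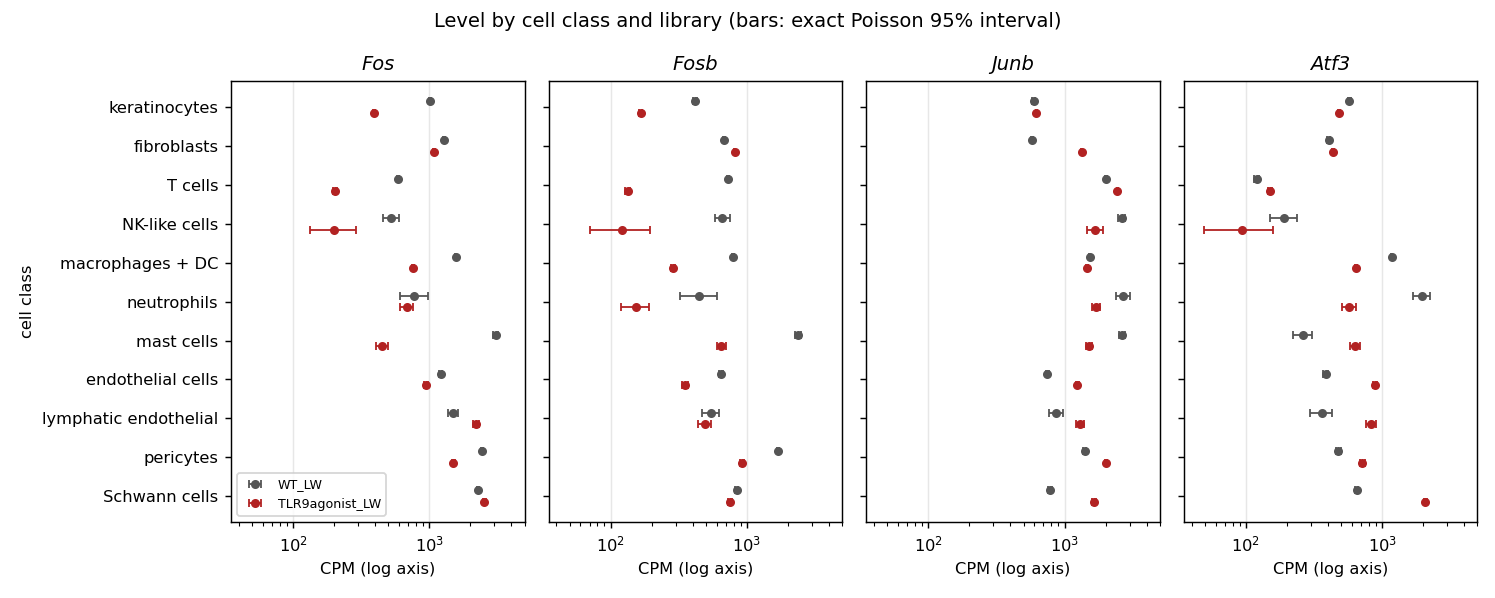
Levels of Fos, Fosb, Junb and Atf3 in the 11 cell classes, in CPM on a log axis, with 1 point per library (grey WT_LW, red TLR9agonist_LW) and bars for the exact 95% counting interval. Fos and Fosb points of TLR9agonist_LW lie below those of WT_LW in most classes, the Fos levels of mast cells being 3058 and 452, and the Junb points lie above in fibroblasts, at 577 and 1339.

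Fos (chr12:85473890-85477273 in GRCm38) was lower in TLR9agonist_LW in 9 of 11 classes, by more than 2-fold in 5. Mast cells had the widest gap, with 3058 CPM in WT_LW and 452 in TLR9agonist_LW (log2 ratio −2.76, 95% interval −2.92 to −2.60). T cells had 591 and 204 (−1.54, −1.59 to −1.48). Keratinocytes had 1012 and 395 (−1.36, −1.40 to −1.32), and macrophages and dendritic cells 1559 and 761 (−1.04). The stromal classes had smaller differences. Fibroblasts had 1280 and 1079 (−0.25), endothelial cells 1207 and 945 (−0.35) and pericytes 2446 and 1492 (−0.71). Schwann cells had 2274 and 2534 (0.16), and lymphatic endothelial cells 1491 and 2201 (0.56). In neutrophils the interval of −0.19 ran from −0.55 to 0.20, which the depth could not tell from no difference. Set against the median gene of each class, Fos stood above it in 4 classes, and fibroblasts and endothelial cells changed sides, at 0.03 and 0.11.

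The order of the classes by Fos level changed with the library. In WT_LW mast cells were highest, followed by pericytes, Schwann cells, macrophages and dendritic cells, lymphatic endothelial cells, fibroblasts, endothelial cells, keratinocytes, neutrophils, T cells and NK-like cells. In TLR9agonist_LW Schwann cells were highest, followed by lymphatic endothelial cells, pericytes, fibroblasts, endothelial cells, macrophages and dendritic cells, neutrophils, mast cells, keratinocytes, T cells and NK-like cells. Neighbours whose counting intervals overlapped were macrophages and dendritic cells with lymphatic endothelial cells in WT_LW, macrophages and dendritic cells with neutrophils in TLR9agonist_LW, and T cells with NK-like cells in both. The highest class exceeded the lowest 5.87-fold in WT_LW and 12.6-fold in TLR9agonist_LW.

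Fosb (chr7:19302696-19310051) was lower in 10 of 11 classes, by more than 2-fold in 6. T cells had 727 CPM in WT_LW and 133 in TLR9agonist_LW (−2.45, 95% interval −2.51 to −2.38), a wider gap than for Fos. Mast cells had 2361 and 650 (−1.86), macrophages and dendritic cells 795 and 285 (−1.48), and keratinocytes 414 and 166 (−1.32). Endothelial cells had 647 and 352 (−0.88) and pericytes 1685 and 912 (−0.89). Fibroblasts were the exception, with 674 and 811 (0.27). Lymphatic endothelial cells (−0.15) and Schwann cells (−0.16) differed least, and Schwann cells came to lie at the level of the median gene or just above it.

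Fosl1 (chr19:5447547-5455946) was rare outside keratinocytes, where it was highest in both libraries, with 80.0 CPM in WT_LW (777 UMIs) and 125 in TLR9agonist_LW (3720 UMIs, log2 ratio 0.64). Pericytes had 6.99 and 46.9 (36 and 176 UMIs, 2.74) and endothelial cells 2.70 and 13.6 (13 and 54 UMIs, 2.33). T cells had 3.99 and 8.23 (1.05) and fibroblasts 27.9 and 35.9 (0.37), while macrophages and dendritic cells had 8.05 and 8.02. The other 5 classes held under 50 UMIs together in both libraries and were given no ratio. Keratinocyte markers, summed, also differed in classes other than keratinocytes, at 429 and 1355 CPM in pericytes, 413 and 1119 in endothelial cells and 578 and 2050 in T cells. Their part in the Fosl1 ratios was not tested. Fosl2 (chr5:32135801-32157842), a Fos relative of slower kinetics, stayed between −0.21 in keratinocytes and 0.54 in lymphatic endothelial cells, and no class passed 2-fold. It was highest in NK-like cells, at 544 and 508, and lowest in keratinocytes, at 115 and 98.9.

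Jun went with Fos in some classes and not in others, and Junb and Jund differed from both. Jun (chr4:95049034-95052222), the founding Jun protein, was higher in TLR9agonist_LW in endothelial cells (1459 and 2065 CPM, log2 ratio 0.50) and Schwann cells (2379 and 3360, 0.50) and close to level in fibroblasts (1936 and 2152, 0.15) and pericytes (2394 and 2363, −0.02). It was lower in T cells (778 and 575, −0.44), macrophages and dendritic cells (1231 and 823, −0.58) and keratinocytes (1043 and 891, −0.23). Mast cells had 4160 and 1360 (−1.61), and NK-like cells (−2.44) and neutrophils (−1.28) were also past 2-fold lower. In all, Jun was lower in 7 of 11 classes. Relative to the median gene, keratinocytes and pericytes changed sides for Jun, at 0.24 and 0.41.

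Junb (chr8:84974484-84978718), a Jun relative with weaker activation on its own and known roles in epidermis and T cells, was the Jun gene that differed most in fibroblasts, with 577 CPM in WT_LW and 1339 in TLR9agonist_LW (1.21, 95% interval 1.18 to 1.25). Schwann cells had 779 and 1643 (1.08), endothelial cells 749 and 1240 (0.73) and pericytes 1402 and 2009 (0.52). Keratinocytes (592 and 621, 0.07) and macrophages and dendritic cells (1525 and 1459, −0.06) were near level, and mast cells had 2628 and 1512 (−0.80). Fibroblasts were the lowest of the 11 classes for Junb in WT_LW, with an interval that overlapped that of keratinocytes. In TLR9agonist_LW keratinocytes were lowest and fibroblasts lay above endothelial cells. Jund (chr8:70698949-70700616), the Jun gene transcribed most steadily in resting cells, ranged from −1.28 in NK-like cells to 1.12 in endothelial cells (790 and 1713). T cells had 1402 and 907 (−0.63) and keratinocytes 447 and 578 (0.37).

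**Figure D2:**
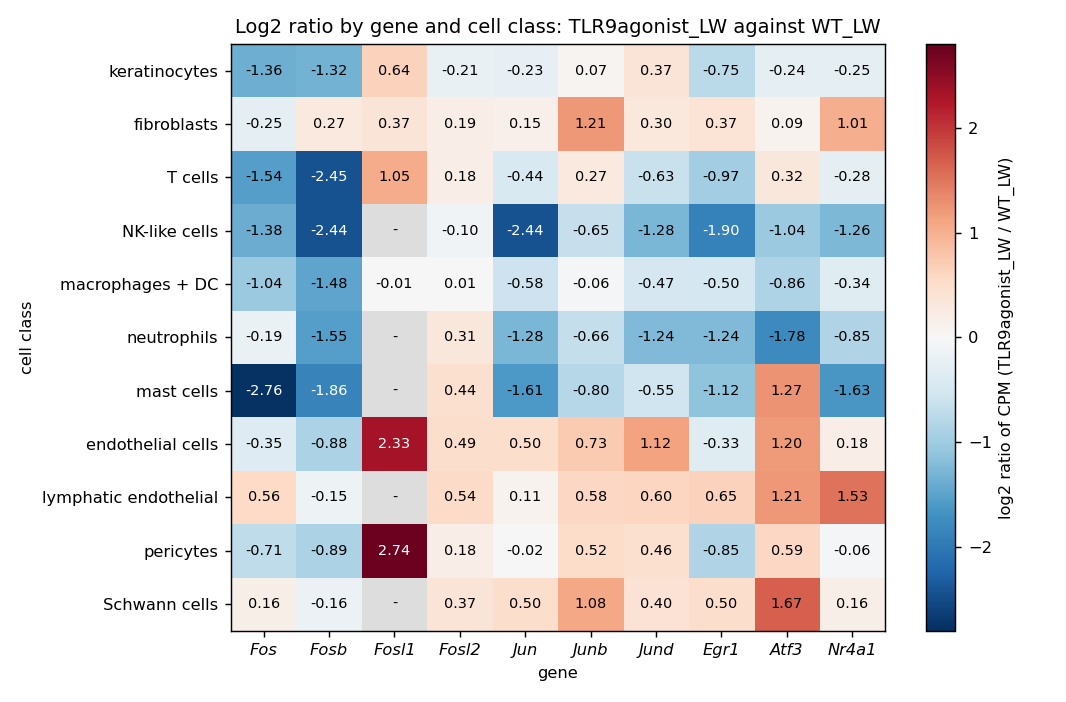
Log2 ratio of TLR9agonist_LW over WT_LW for the 10 genes (columns) in the 11 cell classes (rows), as a grid in which red is higher and blue lower in TLR9agonist_LW and grey marks genes under 50 UMIs in the class. The Fos and Fosb columns are negative in keratinocytes and every immune class, the Junb column is positive in fibroblasts, pericytes, Schwann cells and both endothelial classes, and the most negative cell is Fos in mast cells, −2.76.

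Egr1, the zinc finger factor of chromosome 18 that responds to growth factors through SRF, was highest in fibroblasts in both libraries, at 1341 CPM in WT_LW and 1738 in TLR9agonist_LW (log2 ratio 0.37). It was lower in pericytes (1210 and 670, −0.85), keratinocytes (495 and 295, −0.75), T cells (210 and 107, −0.97) and macrophages and dendritic cells (395 and 280, −0.50). Atf3 (chr1:191170296-191218039), a stress-induced member of the ATF family and a marker of nerve injury, was higher in Schwann cells at 649 and 2072 (1.67), in endothelial cells at 385 and 885 (1.20) and in mast cells at 261 and 630 (1.27). Macrophages and dendritic cells had 1172 and 644 (−0.86) and neutrophils 1956 and 571 (−1.78). The class with most Atf3 exceeded the class with least 16.3-fold in WT_LW and 22.3-fold in TLR9agonist_LW. Nr4a1 (chr15:101254269-101274795), an orphan nuclear receptor used as a reporter of T cell receptor signalling, was at 529 and 434 in T cells (−0.28), 173 and 348 in fibroblasts (1.01) and 827 and 267 in mast cells (−1.63).

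By class, fibroblasts had 2 members past 2-fold higher (Junb and Nr4a1) and 0 lower, beside a background of 3.89% and 7.30% of genes. T cells had 1 higher (Fosl1) and 2 lower (Fos and Fosb), beside 4.51% and 10.3%. Keratinocytes had 0 higher and 2 lower, beside 2.67% and 16.9%, and macrophages and dendritic cells 0 and 2, beside 3.47% and 4.20%. In each of the last 2 classes the lower genes were Fos and Fosb. Endothelial cells had 3 of 10 higher (Fosl1, Jund and Atf3) and 0 lower, beside 3.61% and 16.0%, and pericytes 1 of 10 higher (Fosl1) and 0 lower, beside 3.36% and 12.1%. Schwann cells had 2 of 9 higher (Junb and Atf3) and 0 lower, beside 2.43% and 3.55%. Lymphatic endothelial cells had 2 of 9 higher (Atf3 and Nr4a1) and 0 lower, beside 2.67% and 4.44%. The small immune classes went the other way. Mast cells had 1 of 9 higher (Atf3) and 5 lower, beside 12.6% and 5.60%, neutrophils 0 and 5 of 9, beside 12.4% and 12.1%, and NK-like cells 0 and 7 of 9, beside 3.36% and 5.11%. The median log2 ratio of the 10 genes was 0.29 in fibroblasts, −0.23 in keratinocytes, −0.36 in T cells and −0.48 in macrophages and dendritic cells. The sum of the 10 genes was highest in mast cells in WT_LW, at 17391 CPM, and was 7667 there in TLR9agonist_LW (−1.18). Mast cells were few, 166 and 422, and shallow, with medians of 2523 and 1674 UMIs, and fibroblast markers in them summed to 1602 and 5324 CPM. The part of these markers in the mast cell ratios was not tested.

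The make-up of the AP-1 pool was described by the share of each gene in the UMIs of the 7 Fos and Jun genes. The counts are UMIs of transcripts, so a share weighs transcripts and not protein. Over all gated cells Fos and Fosb together made 35.1% of the pool in WT_LW and 23.3% in TLR9agonist_LW. The share was 38.5% and 19.5% in keratinocytes, 22.3% and 7.17% in T cells and 35.6% and 28.5% in fibroblasts. Junb made 34.1% and 51.8% of the pool of T cells, and 10.5% and 20.2% of that of fibroblasts. The ratio of Jun family to Fos family UMIs was 1.55 and 2.51 over all gated cells, 1.29 and 2.66 in keratinocytes and 2.45 and 4.97 in T cells. It went the other way in neutrophils (4.61 and 2.91) and, by little, in lymphatic endothelial cells (2.05 and 1.94) and NK-like cells (3.29 and 3.16). The shares depend on no scaling between the libraries, but those over all gated cells depend on the mix of classes.

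T cells held a γδT-like class, gated by markers that include Cd163l1, Blk, Sox13, Il17a, Il23r and Maf, which made up 496 of 3200 T cells in WT_LW and 1324 of 3216 in TLR9agonist_LW. The members were higher in it than in the other T cells, with a sum of 12435 against 5874 CPM in WT_LW. Fosb was at 1492 and 179 in γδT-like cells (log2 ratio −3.06) and Fos at 1179 and 292 (−2.01). The other T cells had −2.52 for Fosb and −1.73 for Fos. Junb was close to level within each, at 3547 and 3723 in γδT-like cells (0.07) and 1771 and 1656 in the other T cells (−0.10), although over all T cells it stood at 0.27. The summed members likewise differed by −0.63 within each of the 2 T cell classes and by −0.33 over all T cells. The whole-class value of T cells therefore moved with the share of γδT-like cells.

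Dendritic cells had lower ratios than macrophages for 8 of the 10 genes, all but Fosl1 (0.00 in both) and Fosl2 (0.14 and −0.16), although this difference between classes was not tested. Fosb was at −2.30 and Fos at −1.37 in dendritic cells, against −0.77 and −0.76 in macrophages. Egr1 was at −1.76 in dendritic cells and 0.05 in macrophages, and Nr4a1 at −1.26 and 0.29. In dendritic cells 6 of 10 members were past 2-fold lower and 0 higher, beside a background of 10.9% and 3.19%, and in macrophages 0 in either direction, beside 3.29% and 3.10%. Every keratinocyte was called basal or suprabasal by whichever marker score was higher. Hair follicle cells had no class of their own, so either class may hold some. Basal keratinocytes, named for the layer next to the basement membrane, had −1.07 for Fos and −1.38 for Fosb. Suprabasal keratinocytes, named for the differentiating layers above, had −1.42 and −1.12. Keratinocytes of TLR9agonist_LW were deeper, with a median of 21431 UMIs against 13085, and when every keratinocyte weighed the same, Fos was at −0.96 and Fosb at −0.75, while Jun turned from −0.23 to 0.19 and Nr4a1 from −0.25 to 0.50.

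Shares of cells with a UMI were compared after every cell was thinned to 1500 UMIs, which left out between 0 and 176 cells of a class in a library. Fos was found in 40.8% of WT_LW and 21.4% of TLR9agonist_LW T cells, and Fosb in 47.7% and 15.9%. The unthinned shares were 67.7% and 47.3% for Fos and 72.7% and 36.0% for Fosb, at median depths of 4296 and 4627 UMIs. Keratinocytes had Fos in 61.5% and 34.1% of thinned cells, and in 89.1% and 81.1% of unthinned cells at median depths of 13085 and 21431. Junb was found in 54.0% and 71.8% of thinned fibroblasts (91.8% and 95.4% unthinned, at medians of 16751 and 12878) and in 80.0% and 79.9% of thinned T cells (94.0% and 95.6% unthinned). No gated class is known to lack Fos or Junb, and free RNA adds UMIs to every class. NK-like cells, neutrophils and lymphatic endothelial cells were not thinned. Among the thinned classes the lowest share of Fosb was the 15.9% of TLR9agonist_LW T cells, and a share near that level may hold only free RNA. Cells with 5 or more of the 10 genes made up 42.2% and 24.2% of thinned T cells and 52.7% and 61.8% of thinned fibroblasts.

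The heat shock list was higher in TLR9agonist_LW in every class, whether Fos and Fosb were lower there, as in T cells and keratinocytes, or not, as for Fosb in fibroblasts and Fos in Schwann cells and lymphatic endothelial cells. It was at 11386 CPM in WT_LW and 20862 in TLR9agonist_LW in T cells, at 6545 and 10230 in keratinocytes and at 8963 and 17302 in fibroblasts. The widest gap was in endothelial cells, with 8959 and 29590. Hspa1b, an inducible chaperone of the Hsp70 family, was past 2-fold higher in 11 of 11 classes, and Hspa1a in 10 of 11. The median mitochondrial share of UMIs per cell, 2.82% and 2.02% over all gated cells, was lower in TLR9agonist_LW in every class.

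**Figure D3:**
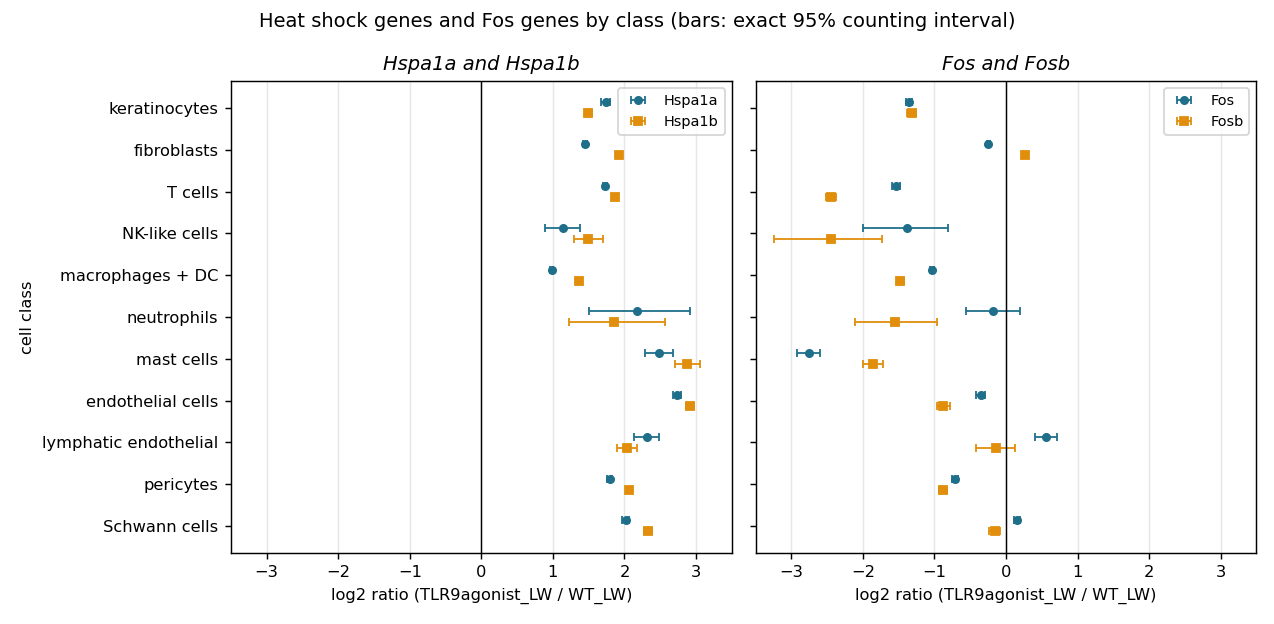
Log2 ratio of TLR9agonist_LW over WT_LW in each of the 11 cell classes for the heat shock genes Hspa1a and Hspa1b (left) and for Fos and Fosb (right), with bars for the exact 95% counting interval. All marks of Hspa1a and Hspa1b lie above 0, whereas those of Fos run from −2.76 in mast cells to 0.56 in lymphatic endothelial cells.

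Within a library, cells with more heat shock UMIs had more of the members. When the cells of each class and library were split into tertiles by their heat shock share, T cells had Fos at 441, 431 and 878 CPM from the lowest to the highest tertile in WT_LW and at 139, 186 and 296 in TLR9agonist_LW. Every TLR9agonist_LW tertile lay below every WT_LW tertile. Keratinocytes had 716, 868 and 1348 against 187, 326 and 785. Fibroblasts had Junb at 358, 594 and 730 against 661, 1198 and 2089, so TLR9agonist_LW was higher in each tertile. For Fosb in fibroblasts the direction turned, with 478, 628 and 870 in WT_LW against 392, 777 and 1225 in TLR9agonist_LW. The tertiles were set in each library by itself and do not match the heat shock level between libraries.

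**Figure D4:**
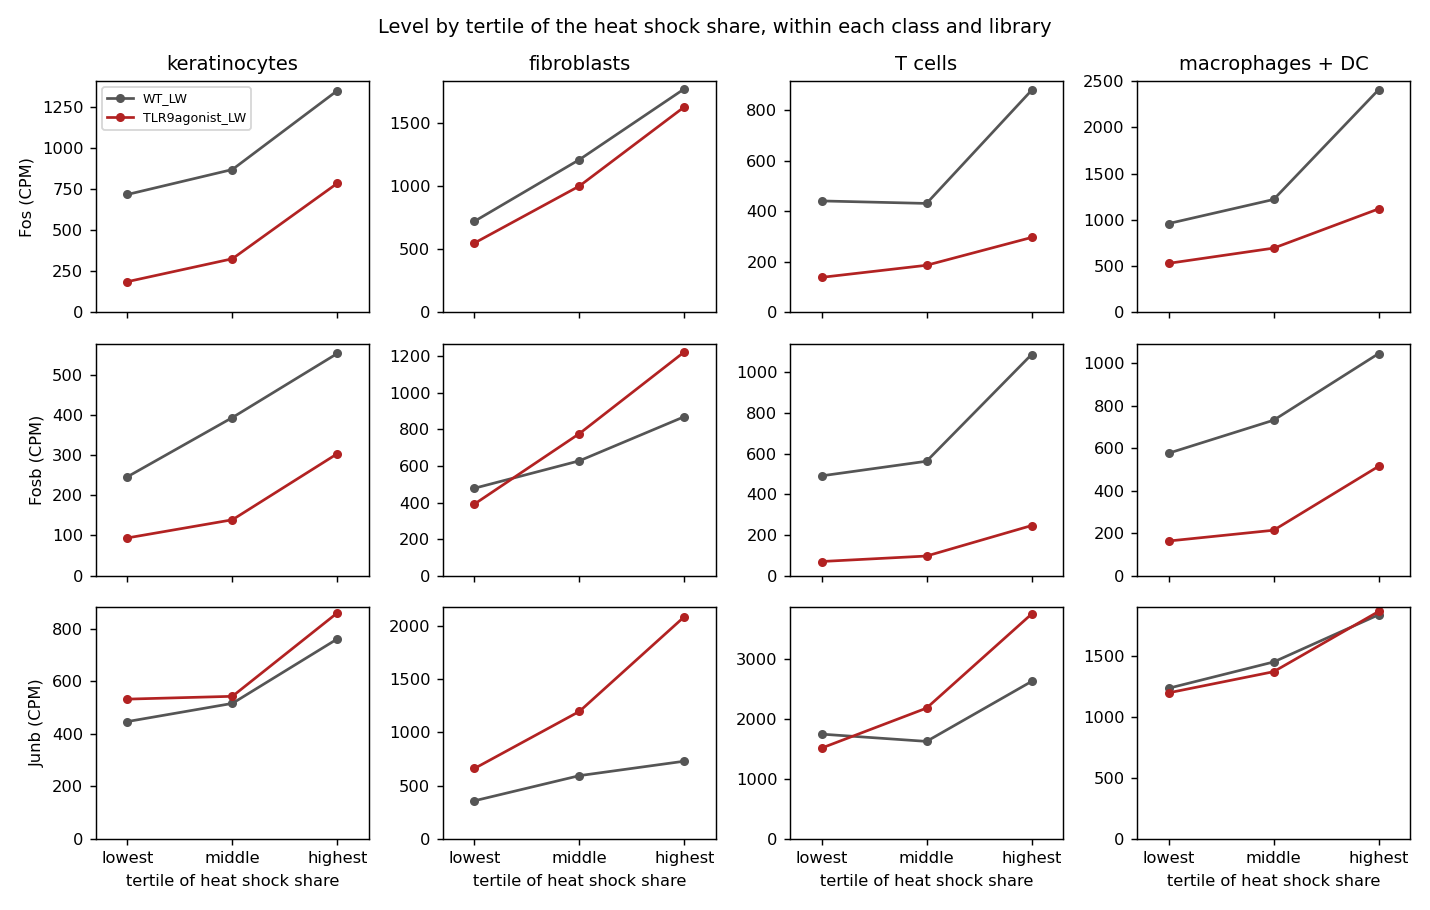
Levels of Fos, Fosb and Junb in CPM in the lowest, middle and highest tertile of cells by heat shock share, for each library in keratinocytes, fibroblasts, T cells, and macrophages and dendritic cells. Levels mostly climb with the tertile, and the Fos lines of TLR9agonist_LW T cells (139 to 296) stay under those of WT_LW (441 to 878).

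Cells with a heat shock share between 5000 and 10000 CPM in both libraries gave a closer match, chosen after the values above were seen. It kept 1232 and 929 T cells, 332 and 720 keratinocytes and 454 and 541 fibroblasts. In those cells Fos was at 429 and 136 in T cells (log2 ratio −1.66), 1025 and 236 in keratinocytes (−2.12) and 1140 and 519 in fibroblasts (−1.14). Fosb was at −2.93 in T cells and −1.96 in keratinocytes. In fibroblasts Fosb turned direction, from 0.27 over all of them to −0.73 (611 and 367), and Junb shrank from 1.21 to 0.20 (555 and 639). The sum of the 10 genes in fibroblasts turned as well, from 0.30 to −0.59. Some other higher levels shrank or turned too, and some did not. Nr4a1 in fibroblasts went from 1.01 to 0.09 and Jund in endothelial cells from 1.12 to 0.29. Atf3 turned from 1.20 to −0.63 in endothelial cells (288 and 52 cells) and from 0.59 to −0.93 in pericytes (270 and 79 cells). Fosl1 in pericytes, however, went from 2.74 to 3.34 (19 and 59 UMIs), and Fosl2 in mast cells from 0.44 to 0.95 (66 and 115 UMIs). Atf3 in Schwann cells stood at 505 and 1501 (1.57, from 376 and 112 cells), but there the heat shock list itself still differed, at 6936 and 8065. In this range Fos and Fosb in T cells and keratinocytes had lower ratios than over all cells of the class. So did Junb and Nr4a1 in fibroblasts, and Jund and Atf3 in endothelial cells. Jun in keratinocytes went from −0.23 to −1.12. The range took a different portion of each library's cells, at 1232 of 3200 and 929 of 3216 T cells. For fibroblasts it took 454 of 941 and 541 of 2403. Because the members mostly rose with the heat shock share within a library, such a selection can lower the ratios by itself. No conclusion on any member is drawn from it, and whether handling of the tissue had a part in any of these differences was not tested.

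The other genes of the pathway were taken from lists. Their T cell values are for the whole class and can also move with the share of γδT-like cells. Genes called highest or lowest below are those with at least 200 UMIs in the class, so a list's counts can include a rarer gene that lies further out. Of all genes, 2.67% were past 2-fold higher and 16.9% lower in keratinocytes, 3.89% and 7.30% in fibroblasts, 4.51% and 10.3% in T cells, and 3.47% and 4.20% in macrophages and dendritic cells, and each list's counts stand beside these shares. Of 23 other immediate early genes, 22 had enough UMIs in each main class. In keratinocytes 2 were past 2-fold higher and 0 lower (median log2 ratio 0.30), the highest being Btg1, an antiproliferative factor (322 and 823 CPM, 1.35), and Maff (1.13), and the lowest Egr2 (−0.89) and Ier2 (−0.66). Fibroblasts had 2 and 0 (0.66), led by the stress gene Gadd45b (274 and 671, 1.29) and Csrnp1 (1.04), with Sgk1 (−0.62) and Klf4 (−0.16) lowest. T cells had 1 and 3 (−0.38), from Egr2 (−1.11) and Klf4 (−1.06) to Btg1 (0.84) and Gadd45b (548 and 1539, 1.49). Within the other T cells no gene of this list passed 0.77, against a highest of 1.99 within γδT-like cells. Macrophages and dendritic cells had 0 and 1 (−0.01), from Klf4 (−1.15) and Dusp1 (−0.84) to Sgk1 (0.63) and Nr4a3 (0.77). The medians stood above those of all genes in keratinocytes, fibroblasts and macrophages and dendritic cells, and below it in T cells.

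The bZIP partners, zipper proteins that can pair with Fos, Jun or each other, had medians of −0.13 in keratinocytes (11 genes, 0 past 2-fold higher and 1 lower), 0.36 in fibroblasts (12 genes, 2 and 0), 0.24 in T cells (12 genes, 3 and 0) and −0.13 in macrophages and dendritic cells (13 genes, 1 and 0). Cebpb, which drives inflammatory genes, was at 226 and 565 CPM in fibroblasts (1.32) and at 1.11 in T cells. Batf in fibroblasts was at 1.65, Jdp2 in T cells at 1.12 and Maf in macrophages and dendritic cells at 1.06. Toward the other end stood Atf7 (−0.90) in keratinocytes, Mafg (−0.44) and Atf2 (−0.41) in fibroblasts, Atf7 (−0.69) and Mafk (−0.27) in T cells, and Mafk (−0.44) and Atf7 (−0.30) in macrophages and dendritic cells. Keratinocytes had Atf4 (0.53) and Mafk (0.38) highest, and Jdp2 followed Maf in macrophages and dendritic cells (0.34).

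The MAPK feedback inhibitors, phosphatases and Spry and Spred proteins that dampen the kinases upstream of Fos, had medians of −0.00 in keratinocytes, 0.05 in fibroblasts, −0.21 in T cells and 0.15 in macrophages and dendritic cells. T cells had 3 of 10 past 2-fold lower and 0 higher, with Spred1 at −1.54 and Dusp6 at −1.20, and Spry1 (0.82) and Dusp4 (0.48) highest. Keratinocytes had 1 of 10 higher, Dusp10 at 1.69, followed by Errfi1 (0.62), with Spred1 (−0.92) and Spred2 (−0.91) lowest. Fibroblasts (11 genes) ran from Spred1 (−0.82) and Dusp2 (−0.70) to Spry1 (0.45) and Dusp4 (0.69), and macrophages and dendritic cells (10 genes) from Dusp2 (−0.17) and Spred2 (−0.12) to Dusp4 (0.26) and Errfi1 (0.77), with 0 past 2-fold in both. The 17 kinases and SRF factors had medians of −0.40, −0.18, −0.38 and −0.31 in the same order of classes. Mapk14, the p38α kinase, was lowest in keratinocytes (−1.15), T cells (−1.12) and macrophages and dendritic cells (−0.98). Map3k8 was highest in keratinocytes (1.35) and fibroblasts (0.67). The other extremes were Map2k7 (−0.87) and Map2k4 (0.69) in keratinocytes, Map2k1 (−0.58), Elk3 (−0.53) and Elk1 (0.22) in fibroblasts, Elk3 (−0.99), Map3k8 (0.35) and Map2k1 (0.42) in T cells, and Map2k7 (−0.71), Map2k4 (0.20) and Map3k1 (0.24) in macrophages and dendritic cells. Past 2-fold, keratinocytes had 1 higher and 1 lower, T cells 1 lower, and the other 2 classes none by this fold.

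AP-1 target genes had medians of 0.63 in keratinocytes (17 genes, 5 past 2-fold higher and 2 lower), 0.32 in fibroblasts (18 genes, 6 and 4), 0.66 in T cells (17 genes, 6 and 1) and 0.35 in macrophages and dendritic cells (16 genes, 5 and 1). In keratinocytes Mmp13, a collagenase of migrating cells, was at 19.7 and 95.3 CPM (2.28) and Ptgs2, the prostaglandin synthase COX-2, at 58.0 and 214 (1.88), while Ccnd1 was at −1.31. Areg, a ligand of the EGF receptor, was at 268 and 3078 in T cells (3.52), 8.36 and 58.5 in fibroblasts (2.81) and 92.0 and 349 in macrophages and dendritic cells (1.92). In this list the highest ratio was 3.44 within γδT-like cells and 2.44 within the other T cells. The T cell value of Areg, above both, therefore moved with the share of γδT-like cells. The cytokine Il6 was at 25.9 and 206 in fibroblasts (2.99), at 2.59 in T cells and at 2.26 in macrophages and dendritic cells. Fibroblast markers, summed, also differed in the 2 immune classes, at 1888 and 3313 CPM in T cells and 1250 and 2174 in macrophages and dendritic cells. Their part in the Il6 ratios there was not tested. Il11 (−2.60) and Mmp9 (−1.64) were lowest in fibroblasts, Ccnd1 (−0.82) and Spp1 (−0.37) in T cells, and Cd44 (−0.67) and Ccnd1 (−0.26) in macrophages and dendritic cells. These genes have other regulators as well as AP-1.

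The heat shock list had 6, 5, 5 and 3 of 13 genes past 2-fold higher in keratinocytes, fibroblasts, T cells, and macrophages and dendritic cells, none past 2-fold lower, and medians of 0.59, 0.96, 0.69 and 0.79. Hspa1a (253 and 844 CPM, 1.74) and Dnajb1 (1.70) led in keratinocytes, Hspa1b (879 and 3328, 1.92) and Dnajb1 (1.90) in fibroblasts, and Hspb1 (37.4 and 234, 2.65) and Hspa1b (1052 and 3820, 1.86) in T cells. In macrophages and dendritic cells Hspb1 (2.76) and Hspa1b (1.36) led. Keratinocyte markers, summed, also differed in these immune classes, at 578 and 2050 CPM in T cells and 407 and 1285 in macrophages and dendritic cells. Their part in the Hspb1 ratios was not tested. The lowest values were those of Hspd1 (−0.08) and Hspe1 (0.06) in keratinocytes, Hsp90ab1 (0.18) and Dnajb4 (0.27) in fibroblasts, Dnajb4 (0.23) and Hsp90ab1 (0.33) in T cells, and Hsp90ab1 (−0.01) and Hspa8 (0.13) in macrophages and dendritic cells.

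Across the 22 pairs of class and library, Fos levels ran with those of Jun (r = 0.85), Fosb (0.78) and Egr1 (0.77), Jun with Egr1 (0.82), and Junb with Nr4a1 (0.76), on the scale of log2(CPM + 1). Fos against Hspa1a gave 0.00. Among all members with Hspa1a or Hspa1b, values ran from −0.18 (Fosb with Hspa1b) to 0.27 (Fosl2 with Hspa1b). The 22 points mix both libraries, so these values cannot show how Fos goes with heat shock genes within a library. From cell to cell within a library, Fos went with the heat shock list in every thinned class. There r on a log scale ran from 0.13 (mast cells, WT_LW) to 0.36 (macrophages and dendritic cells, WT_LW). Outside all lists, the genes whose pattern was most like the mean of the members were Aga (r = 0.78), Csgalnact2 (0.77), Ric8b (0.77), Arfgap3 (0.75) and Zfhx3 (0.75), over the same 22 points and out of 10211 genes. Each of these genes was at 0 CPM at its lowest point, and their highest levels were only 41.4 to 276 CPM. Zeros in shallow classes weigh heavily on this scale, and their part in these correlations was not tested. The points share their libraries, and classes of one library are not replicates, so these values are a description.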

How the data were processed

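Single-cell suspensions of wound tissue were sequenced on the 10x Genomics platform, and the authors deposited 1 matrix of raw UMI counts per gene and cell for each of the 2 libraries. The submitters' processing notes name fastp, Cell Ranger, Seurat and the build mm9, and the matrix headers give Cell Ranger 4.0.0. The kit version and the counting of strand are not given in the sources used here. The matrices hold no coordinates, so gene positions were taken from GENCODE for GRCm38 and promoters from RefSeq for GRCm38.p6. The number of mice per pool differs between the study's methods and results.

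Barcodes (12800 in WT_LW and 13751 in TLR9agonist_LW) stayed in if they had a minimum of 500 UMIs and 300 genes, with mitochondrial UMIs up to 15%. The cells with the highest Scrublet scores were removed as likely doublets, at an assumed rate of 0.8% per 1000 cells, which took out 1048 and 1395 cells. A class was given where its marker score led (at least 0.2, the second class at most 0.6 of the lead), with thresholds set after the values were seen. A Leiden clustering gave 30 clusters, of which 27 were named from the same marker lists. Of gated cells in a named cluster, 99.1% had the same class, which the shared markers fixed in part. UMIs were summed per class and library and divided by the class total. Genes with at least 50 UMIs in both libraries together were given log2 ratios with exact conditional 95% intervals, and a log2 ratio past 1 was counted as past 2-fold. No test across samples was run. The ratio and its interval were tested on simulated Poisson counts only, the model that the interval itself assumes. That test holds no variation between cells or pools, so it cannot show how the intervals do on such variation.

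The members and the gene lists were chosen with earlier results of these data known. In the other lists, the 2 highest and the 2 lowest genes with at least 200 UMIs were named in each of the 4 main classes, and a few genes that this rule or a gate takes in are not reported here. For likeness, the 5 genes outside all lists with the highest Pearson correlation were taken. Of the alternatives, 7 were planned and 2 on the heat shock share were added after the data were seen. Analyses used Python 3.11.15, scanpy 1.11.5, numpy 2.4.6, scipy 1.17.1 and pandas 2.3.3.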

Additional observations from a re-analysis of the deposited data

Results flagged for a closer look

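For 3 genes, ratios of opposite sign and more than 2-fold in size stood in different cell classes. Jund was at −1.28 in NK-like cells and 1.12 in endothelial cells. Atf3 was at −1.78 in neutrophils and 1.67 in Schwann cells. Nr4a1 was at −1.63 in mast cells and 1.53 in lymphatic endothelial cells, the latter from 18 and 101 UMIs. Each class had 1 library per condition, so none of these differences between classes was tested. NK-like cells numbered 77 and 29, and neutrophils 43 and 189.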

How the results depend on the processing

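The 10 genes summed had log2 ratios of −0.17 over all gated cells, −0.38 in keratinocytes, 0.30 in fibroblasts, −0.33 in T cells and −0.60 for macrophages with dendritic cells. A stricter cell filter moved it to −0.19 over all gated cells and −0.44 in keratinocytes. With doublets kept, keratinocytes gave −0.40, fibroblasts 0.28 and macrophages with dendritic cells −0.56, and with a stricter gate it was −0.41 in keratinocytes and −0.34 in T cells. With equal weight per cell it was −0.16 over all gated cells, −0.00034 in keratinocytes and −0.45 in macrophages and dendritic cells. Centred on the median gene it was 0.21, 0.090, 0.58, −0.044 and −0.34 in the order given first, and so changed sign over all gated cells and in keratinocytes. In the lowest tertile of the heat shock share it was −0.35, −0.28, 0.12, −0.59 and −0.58. In the highest tertile, an alternative added after the data were seen, it was 0.0066, −0.065, 0.45, −0.17 and −0.51, and in the fixed range of heat shock share, also added, −0.86, −0.99, −0.59, −0.60 and −0.76. Of 50 ratios of single members in these classes, between 37 and 49 kept their sign under an alternative, with the fewest in the fixed range and 38 after centring. The cause of these moves was not tested. No paired analysis was possible because each condition had 1 library, and leaving a library out was not possible for the same reason. Depth limits the values of NK-like cells, neutrophils and lymphatic endothelial cells.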
